A study of Caenorhabditis elegans with 2 samples.

Results

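The regions described here were the candidate sites of OEF-1 binding on the X chromosome of Caenorhabditis elegans, away from small RNA genes. They came from the pooled candidate list of a chromatin immunoprecipitation sequencing (ChIP-seq) experiment, and each candidate was placed by its summit, the base at which its signal peaked. Of 1705 candidates on X, 242 had a summit within 250 bp of a transfer RNA (tRNA), small nucleolar RNA or small nuclear RNA gene and were left out. The remaining 1463 were the X members, of 30000 candidates in all, and were set against 27648 autosomal members chosen in the same way. The experiment had 1 group of 2 samples, biological replicates 3 and 4, each made from whole hermaphrodite fourth-stage (L4) larvae collected 52 h after they were synchronized, after bleaching, as starved first-stage larvae. Both samples were of strain OP383 (unc-119(tm4063) III; wgIs383), which carries an inserted copy of oef-1 (F49E8.2) with a C-terminal GFP-FLAG tag, and chromatin was sonicated and recovered with an antibody against GFP. The insertion is carried in an unc-119 mutant background. Samples of an untagged strain were not part of the comparison. Germline and soma were not separated, so strong binding in few cells and weak binding in many cannot be told apart.

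OEF-1 is known as a protein of the germline, where it is found on actively transcribed germline genes. In germ cells of hermaphrodites the X chromosomes are largely kept silent, and genes expressed in the germline are scarce on X. In somatic cells both X chromosomes are instead bound by the dosage compensation complex, a condensin-based machine that lowers X expression and is loaded at recruitment sites that carry a short sequence motif. That motif contains the letters CGCAGGG, and a search for them on both strands around the summits is part of the results below.

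The deposited lists give each candidate a signal whose scale is not stated, and the signal is the authors' value. Candidates were ranked by it within 1 list, with rank 1 the highest. Candidates were called loosely, so that many are weak or background, as input to a test of reproducibility. The authors' optimal list, kept for reproducibility between replicates, was the 1339 highest-ranked pooled candidates. The lists of replicates 3 and 4 held 30000 and 23600 candidates, and the read depth behind them is unknown. Intervals given with shares are exact (Clopper-Pearson) 95% intervals that cover counting error only. Neighbouring candidates are not replicates, and differences between X and the autosomes were set side by side with these intervals and not tested further.

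The counts further below take in all matches to these letters, and some of those at strong members are shown first as examples. Each is a stretch of 30 bases of the WBcel235 (ce11) genome from RefSeq, read 5' to 3' on the strand of the match, with CGCAGGG in capitals, and is named by the protein-coding gene whose annotated 5' end was nearest. The first 8 matches lay within 100 bp of X summits of rank 406 to 2122, and in each the capitals follow the bases TCG. They are all the matches with those bases among the 15 matches within 100 bp of X summits down to rank 2500. The ninth, at an X summit in the optimal list, is 1 of the X matches without those bases. The last 3 are taken from 13 matches within 100 bp of optimal autosomal summits.
W02H3.3, chrX:11094113-11094142, minus strand: gttttatatcgCGCAGGGagcttatgcatg
W02H3.3, chrX:11094214-11094243, minus strand: ggaaccattcgCGCAGGGacacctcactgc
F20B6.9, chrX:4209254-4209283, minus strand: tgccgctatcgCGCAGGGacacctctttct
Y41G9A.17, chrX:2997111-2997140, minus strand: taaatttatcgCGCAGGGaggaagtagccc
nspc-17, chrX:14525888-14525917, minus strand: attgcctatcgCGCAGGGacagatgtggta
cest-16, chrX:6296566-6296595, plus strand: gataggtatcgCGCAGGGaagatttaccgc
gtr-1, chrX:806664-806693, plus strand: tgcgattatcgCGCAGGGgtgtttgttgct
ins-39, chrX:1345046-1345075, plus strand: aatgtcattcgCGCAGGGcagctgagccct
F55G7.5, chrX:11937531-11937560, plus strand: ggaggtacaaaCGCAGGGaagagaattaac
cosa-1, chrIII:2725728-2725757, plus strand: attttggaattCGCAGGGaaaaaccggaaa
lin-9, chrIII:8904274-8904303, minus strand: cgctacactgcCGCAGGGcaatcgcgtcga
dkf-2, chrV:16747030-16747059, minus strand: tactttaaaggCGCAGGGtcagaatttttc

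X members were sparse, and most of them were weak. They made up 5.03% of all members (interval 4.78 to 5.28), while X held 17.6% of the nuclear bases outside small RNA genes. There were 82.6 members per Mb on X, against 334.9 per Mb on the autosomes, where single chromosomes ran between 217.6 on V and 412.2 on III. In replicate 3 alone it was 87.2 per Mb on X and 333.7 per Mb on the autosomes. In replicate 4 alone it was 145.8 per Mb on X and 244.7 per Mb on the autosomes, so the contrast was smaller there. In each list X lay below every autosome in density. The median X member stood at rank 19426 with a signal of 16.8, and the median autosomal member at rank 15075.5 with a signal of 19.6. The best X member reached rank 406 with a signal of 131.6, whereas the best autosomal member reached rank 21 with a signal of 631.3.

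Few X members were among the optimal peaks. Of all members on any chromosome, 3.31% were in the optimal list. The count was 15 of 1463 on X (1.03%, interval 0.575 to 1.69) and 948 of 27648 on the autosomes (3.43%, interval 3.22 to 3.65), with single autosomes between 3.08% and 3.6%. This amounted to 0.847 optimal members per Mb on X and 11.5 per Mb on the autosomes. With 100 or 500 bp in place of 250 bp, 16 and 15 X members were optimal. Of 222 X candidates with a summit up to 150 bp from such a gene, 93 were optimal, with a median signal of 66.3. Just inside the threshold, at 151 to 250 bp, were 20 candidates, and just outside, at 251 to 350 bp, were 2, and neither set held an optimal peak.

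The share of members that lay on X was lowest above rank 5000 and larger in each range below it. It was 1.56% (15 of 963) in the optimal list, 0.899% (9 of 1001) at ranks 1340 to 2500 and 1.34% (32 of 2381) at ranks 2501 to 5000. From there it was 2.83% at ranks 5001 to 10000, 5.17% at ranks 10001 to 15000 and 7.24% (360 of 4971) at ranks 25001 to 30000. In every range it stayed under the 17.6% of bases that X holds. Replicate 3 gave 1.12% (11 of 981) among its top 1339 candidates and 5.31% over its list. Replicate 4 gave 2.15% (21 of 977) and 11.3%, so the X share of a whole list was over 2 times as high in replicate 4 as in replicate 3, and the pooled list lay near replicate 3. Replicate 4 had 2583 X members and 20202 autosomal members, against 1545 and 27544 in replicate 3, and the lists differ in length. Whether the read depth of the replicates moves with this was not tested, since it is unknown.

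**Figure D1:**
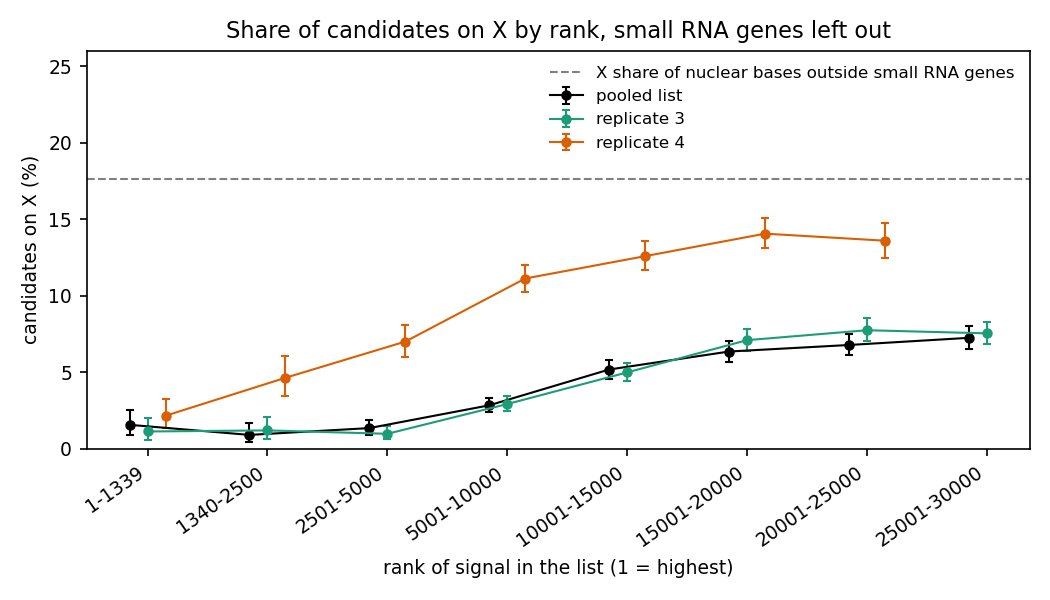
Share of candidates on X (%, vertical axis) by rank of signal in the pooled list and in each replicate's list (horizontal axis, rank 1 the highest), with exact 95% intervals as bars and the X share of nuclear bases outside small RNA genes, 17.6%, as a dashed line. The pooled share climbs to 7.24% at the lowest ranks, and replicate 4 lies above replicate 3 in every range but stays under the dashed line.

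Fewer X members were found in both replicates at lower ranks. The pooled list was made from both replicates, and the optimal list was kept for reproducibility between them, so high shares at its top follow in part from how the lists were made and are a description. Over all members on any chromosome, 29.6% had a summit within 200 bp in both replicate lists. The count was 242 of 1463 on X (16.5%, interval 14.7 to 18.5) and 8361 of 27648 on the autosomes (30.2%, interval 29.7 to 30.8). All 15 optimal X members and all 9 at ranks 1340 to 2500 were found in both lists, next to 927 of the 948 optimal autosomal members. At ranks 2501 to 5000 it was 24 of 32 X members (75%) and 73.0% of the autosomal ones, and at ranks 25001 to 30000 it was 3.06% on X and 3.6% on the autosomes. Within equal ranges of rank the shares on X and on the autosomes were thus close at both ends of the list, while at ranks 15001 to 20000 they were 8.57% on X and 13.3% on the autosomes. Taken the other way, 29 of the 70 X members among the top 2500 of replicate 4 (41.4%, interval 29.8 to 53.8) had a partner anywhere in replicate 3, against 80.8% of its autosomal ones. In replicate 3 the same count was 21 of 23 (91.3%, interval 72.0 to 98.9) on X and 83.2% on the autosomes.

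The 15 optimal X members lay far from coding 5' ends, and several stood close to the sequences shown above. The strongest, at chrX:11094003-11094442, had a pooled signal of 131.6 (rank 406), with signals of 61.4 (rank 1072) in replicate 3 and 57.2 (rank 138) in replicate 4. Its summit was intergenic, 3963 bp downstream of the 5' end of W02H3.3. The next, at chrX:4209076-4209515 and 1811 bp upstream of F20B6.9, had a pooled signal of 117.9 (rank 533), with ranks of 884 in replicate 3 and 241 in replicate 4. Both were thus higher in the ranking of replicate 4 than in that of replicate 3.

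The member at chrX:6207650-6208089 was the exception among the 15 in position. Its summit lay 183 bp upstream of the 5' end of T13C5.6 and inside the noncoding RNA gene C14F11.14, with a pooled signal of 117.1 (rank 539) and ranks of 522 in replicate 3 and 733 in replicate 4. No other optimal X member was within 500 bp of a coding 5' end. The member at chrX:2996855-2997294, in an intron of Y41G9A.17, had a pooled signal of 107.3 (rank 627), with ranks of 630 and 998 in replicates 3 and 4. F02E8.4 had one 862 bp upstream of its 5' end, with a signal of 103.5. That near nspc-17, a gene of a nematode-specific peptide family, was 760 bp upstream with a signal of 101.3.

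The other 9 optimal X members had signals of 75.7 to 96.1. Of these, 2 lay in introns of genes other than the one with the nearest 5' end. The first, with a signal of 94.3, was in pks-1, which encodes a polyketide synthase, and 15122 bp upstream of the 5' end of C41A3.2. The second, with a signal of 82.7, was in mom-1, the Porcupine homologue needed to secrete Wnt ligands, and 3403 bp upstream of cest-16, a carboxylesterase gene. The member named by F19H6.5 (95.3) fell in the 3' UTR of F19H6.6. The remaining 6, named by F55G7.5 (96.1), WBGene00020828 (84.9), K02D3.1 (83.9), F22F1.2 (81.8), ZK380.4 (79.2) and F39F10.2 (75.7), were intergenic with respect to coding genes. WBGene00020828 has no other name in the annotation, and its member and that of ZK380.4 each lay inside an annotated pseudogene.

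The replicates ranked these 15 differently. Their ranks ran between 522 and 2102 in replicate 3, with a median of 1134, and between 138 and 3150 in replicate 4, with a median of 519. The 948 optimal autosomal members had median ranks of 655 in replicate 3 and 779.5 in replicate 4. Among the X members, 11 of 15 were in the top 1339 of replicate 3, 12 of 15 in that of replicate 4 and 9 of 15 in both. On the autosomes 554 of 948 (58.4%) were in both. The top 1339 of replicate 3 held 11 X members, and each of them lay within 200 bp of an optimal X summit. Of the 21 X members in the top 1339 of replicate 4, 12 did.

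The next 10 X members by signal, outside the optimal list, had pooled signals of 49.7 to 67.9 and ranks of 1546 to 2568. All 10 were intergenic with respect to coding genes. The members were named by T01B6.1, F56C3.1, T27A8.7, gtr-1, ZK899.6, ins-39, ftt-2, ZK816.3, idpp-9 and spat-3. The summits of those named by T01B6.1, ZK816.3 and idpp-9 lay inside noncoding RNA genes. Here ins-39 encodes an insulin-like peptide, ftt-2 a 14-3-3 protein and spat-3 a RING finger protein. Each of the 10 was found in both replicates, none was in the top 1339 of replicate 3 and 3 were in that of replicate 4. The T27A8.7 member was placed higher in replicate 4, at rank 3965 in replicate 3 and rank 515 in replicate 4. The ZK899.6 member went the other way, at rank 1420 in replicate 3 and rank 5200 in replicate 4.

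**Figure D2:**
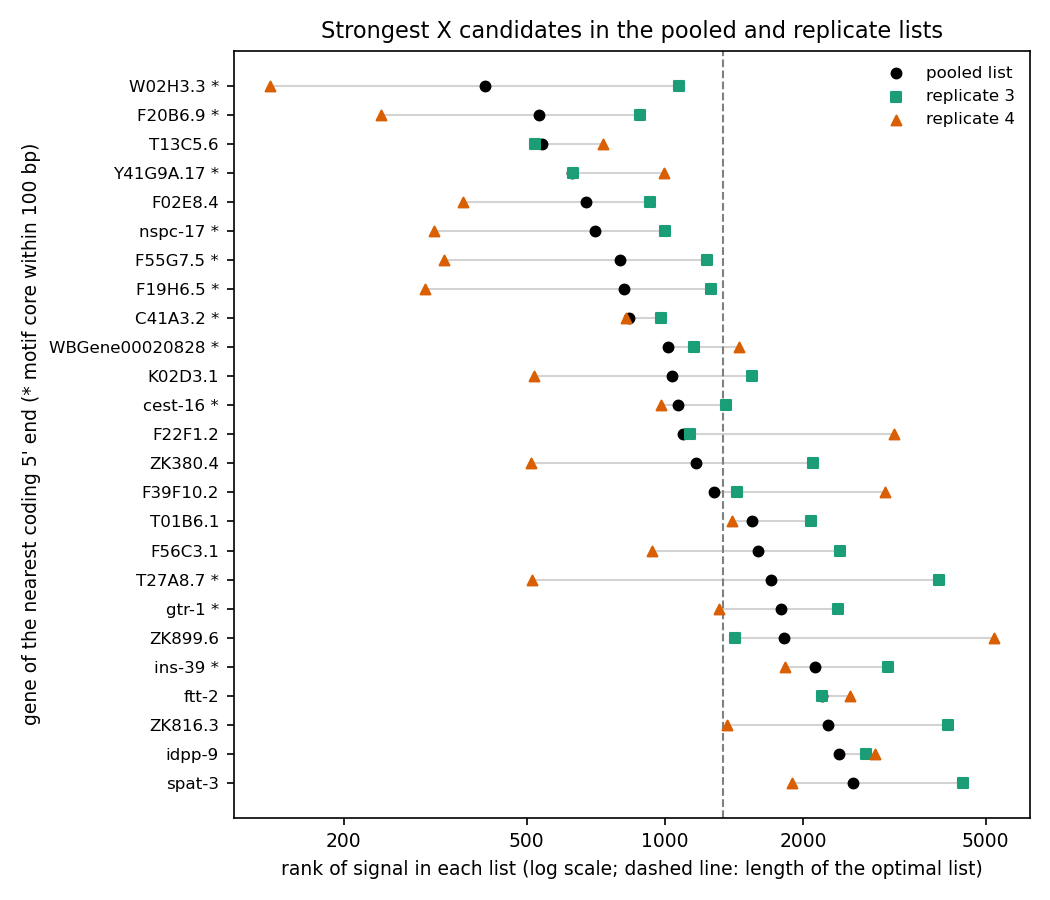
Ranks (horizontal axis, log scale, rank 1 the highest) of the 25 strongest X members in the pooled list, in replicate 3 and in replicate 4, each row named by the gene of the nearest coding 5' end, with an asterisk where the motif core lay within 100 bp of the summit. The dashed line marks rank 1339, and the 15 members whose pooled rank is left of it are the optimal X members, led by W02H3.3 at rank 406.

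The letters CGCAGGG stood near a larger share of the strongest X members than of autosomal members of equal rank. Over all members on any chromosome, 0.319% had a match within 50 bp of the summit, and 1.56% of the optimal ones did. In the optimal list it was 6 of 15 X members (40%, interval 16.3 to 67.7) and 9 of 948 autosomal members (0.949%, interval 0.435 to 1.79). Within 100 bp, where 0.529% of all members had a match, it was 9 of 15 on X (60%, interval 32.3 to 83.7) and 13 of 948 on the autosomes (1.37%). The intervals of the X and autosomal shares did not overlap in either window. The letters themselves were about as common on both: consecutive windows of 201 bp held them in 0.327% of cases on X and in 0.313% on the autosomes, and windows of 101 bp in 0.156% and 0.152%.

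The matches on X were concentrated at the top of the ranking. At ranks 1340 to 2500, 3 of 9 X members (33.3%, interval 7.49 to 70.1) had a match within 50 bp, against 0.302% of autosomal members. At ranks 2501 to 5000 it was 1 of 32 (3.13%) against 0.298%. Over all ranks, 14 of 1463 X members (0.957%) and 79 of 27648 autosomal members (0.286%) had one. With each replicate alone, the share within 50 bp among X members in the top 1339 was 3 of 11 (27.3%, interval 6.02 to 61.0) in replicate 3 and 7 of 21 (33.3%, interval 14.6 to 57.0) in replicate 4.

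**Figure D3:**
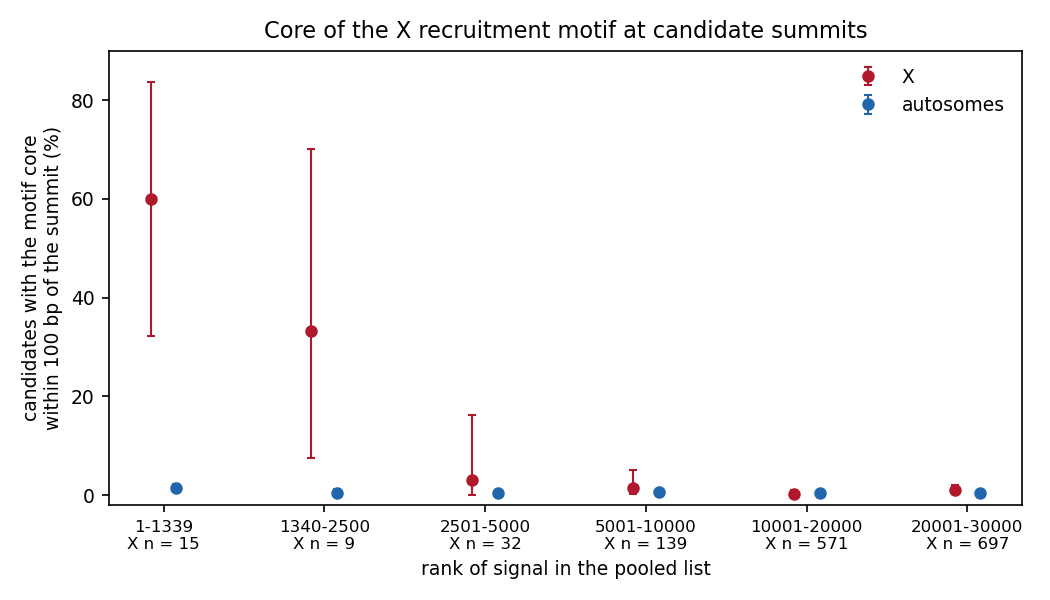
Share of members with the motif core within 100 bp of the summit (%, vertical axis) by rank in the pooled list (horizontal axis), for X and the autosomes, with exact 95% intervals as bars. On X the share is 60% in the optimal list and 33.3% at ranks 1340 to 2500, while the optimal autosomal members are at 1.37%.

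The bases in front of the core also differed. Of the 9 optimal X members with a match within 100 bp, 7 had one that followed a G, 6 one that followed CG and 5 one that followed TCG. Of the 13 optimal autosomal members with a match, 2 had the G and none had CG. Down to rank 2500, 12 of 24 X members had a match within 100 bp, 9 had one that followed a G, 8 one that followed CG and 7 one that followed TCG. These longer forms were chosen after the sequences had been seen, so the counts are a description. Counted from the genome side, outside small RNA genes, the core occurred 295 times on X (16.6 per Mb) and 1297 times on the autosomes (15.7 per Mb). With TCG in front it occurred 18 times on X (1.02 per Mb) and 6 times on the autosomes (0.0727 per Mb). Of those 18 X copies, 10 had a member of any rank within 100 bp, 8 had one down to rank 2500 and 6 had an optimal one. Of the 6 autosomal copies, 1 had a member and none had an optimal one.

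The 12 X members down to rank 2500 with a match within 100 bp were set beside the 12 without, as a description. Their median signals were 94.8 with a match and 71.8 without. A coding 5' end was within 500 bp of none of those with a match and of 2 of those without. With respect to coding genes, 8 of those with a match were intergenic and 3 intronic, while all 12 without were intergenic. Median ranks were 1195 with a match and 1812 without in replicate 3, and 668.5 and 1383 in replicate 4. GC content in the 101 bp around the summit was near equal, at 46.0% ± 8.76 (SD over 12 members) with a match and 46.4% ± 8.35 without.

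Other motifs were searched in the same way on both strands within 50 bp. The motif GGCGCA had been named in an earlier analysis of these peaks. The same analysis named ACGCGC. It also named GCGCCA. These came from the same optimal peaks, most of them autosomal, so their autosomal shares are no independent result. The E2F-type motif GCGGGAA was added here. GGCGCA can share its letters CGCA with CGCAGGG, and ACGCGC its last letters CGC. GGCGCA was present at 1 of 15 optimal X members (interval 0.169 to 31.9%) and 16.0% of optimal autosomal members (interval 13.8 to 18.5%). ACGCGC was present at 1 of 15 on X and 12.3% on the autosomes, GCGCCA at 2 of 15 on X and 12.4% on the autosomes, and GCGGGAA at 1 of 15 on X and 3.90% on the autosomes. For these motifs the X intervals are wide and contain the autosomal shares. The repeat GAGAGA was at 2 of 15 optimal X members and 9.49% of optimal autosomal members, and at 7 of 32 (21.9%, interval 9.28 to 39.97) and 6.77% at ranks 2501 to 5000. At ranks 5001 to 10000 it was at 4.32% of X and 5.56% of autosomal members, and over all ranks at 5.54% and 5.49%. Windows of 101 bp held GAGAGA in 4.91% of cases on X and 5.24% on the autosomes, GGCGCA in 1.24% and 1.60%, ACGCGC in 0.999% and 1.29%, GCGCCA in 1.67% and 1.61%, and GCGGGAA in 0.824% and 1.31%. Mean GC content around optimal summits was 48.1% ± 8.47 (SD, 15 members) on X and 42.5% ± 8.55 (SD, 948 members) on the autosomes, and the mean of all such windows was 35.2% on X and 35.5% on the autosomes.

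X members were less often near coding 5' ends than autosomal ones, and this held most clearly at the top of the ranking. Because many worm transcripts are trans-spliced, an annotated 5' end can lie downstream of where transcription begins. Of all members on any chromosome, 26.8% had a summit within 500 bp of a coding 5' end, and 59.6% of the optimal ones did. The count was 282 of 1463 on X (19.3%, interval 17.3 to 21.4) and 7511 of 27648 on the autosomes (27.2%, interval 26.6 to 27.7). In the optimal list it was 1 of 15 on X (6.67%, interval 0.169 to 31.9) and 573 of 948 on the autosomes (60.4%, interval 57.2 to 63.6). For reference, 15.1% of bases on X and 19.6% on the autosomes lie within 500 bp of such an end.

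X and the autosomes converged down the ranking. At ranks 2501 to 5000 the X share was 31.3% (10 of 32, interval 16.1 to 50), the highest of the 8 ranges, against 40.8% on the autosomes. At ranks 5001 to 10000 it was 20.1% on X and 29.6% on the autosomes, and at ranks 25001 to 30000 it was 20.6% and 20.7%. At these lowest ranks the shares on X and on the autosomes differed by less than their counting intervals. Each replicate alone gave like shares over all ranks, with 17.6% on X and 27.5% on the autosomes in replicate 3, and 17.96% and 27.8% in replicate 4. The median distance of optimal members was 1794 bp on X and 319 bp on the autosomes.

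**Figure D4:**
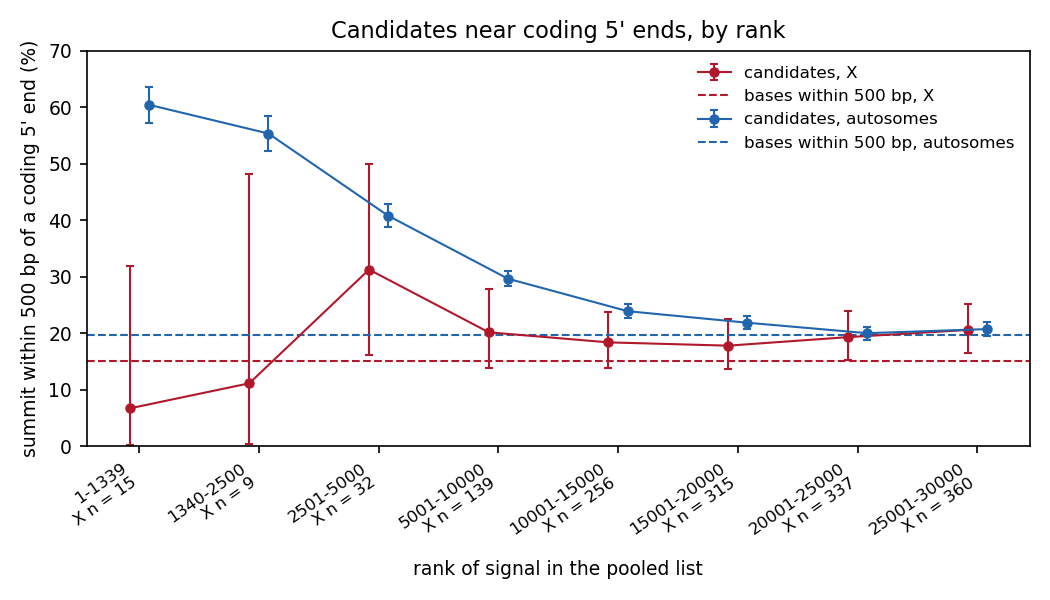
Share of members with a summit within 500 bp of a coding 5' end (%, vertical axis) by rank in the pooled list (horizontal axis, with the number of X members), for X and the autosomes, with exact 95% intervals as bars and the share of bases within 500 bp as dashed lines. The autosomal share is 60.4% in the optimal list and 20.7% at the lowest ranks, while the X share is 6.67% and 20.6%.

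Optimal autosomal members clustered just upstream of 5' ends, where 1 optimal X member lay. Of optimal autosomal members within 500 bp of a 5' end, 79.9% were upstream, with a median position of -154 bp. Of all members within 500 bp, 47.2% were upstream on X and 50.4% on the autosomes. Down to rank 5000, 12 of 56 X members were within 500 bp, and 39.3% of X members against 17.7% of autosomal ones were over 2000 bp away. By the annotation of coding genes alone, 11 of 15 optimal X members were intergenic, 3 intronic and 1 in a 3' UTR. None was in coding sequence (0 of 15, interval up to 21.8%). Of optimal autosomal members, 66.7% were intergenic, 13.4% intronic and 10.2% in coding sequence. Over all ranks, 38% of X members were intergenic and 26.4% in coding sequence, compared with 44.3% and 20.1% of X bases, while the autosomal shares were 30.5% and 29.5%. Every X member was 440 bp wide, and 98.7% of all autosomal members were. In the optimal list it was all 15 X members and 65.5% of the autosomal ones, whose widths ran between 110 and 899 bp.

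**Figure D5:**
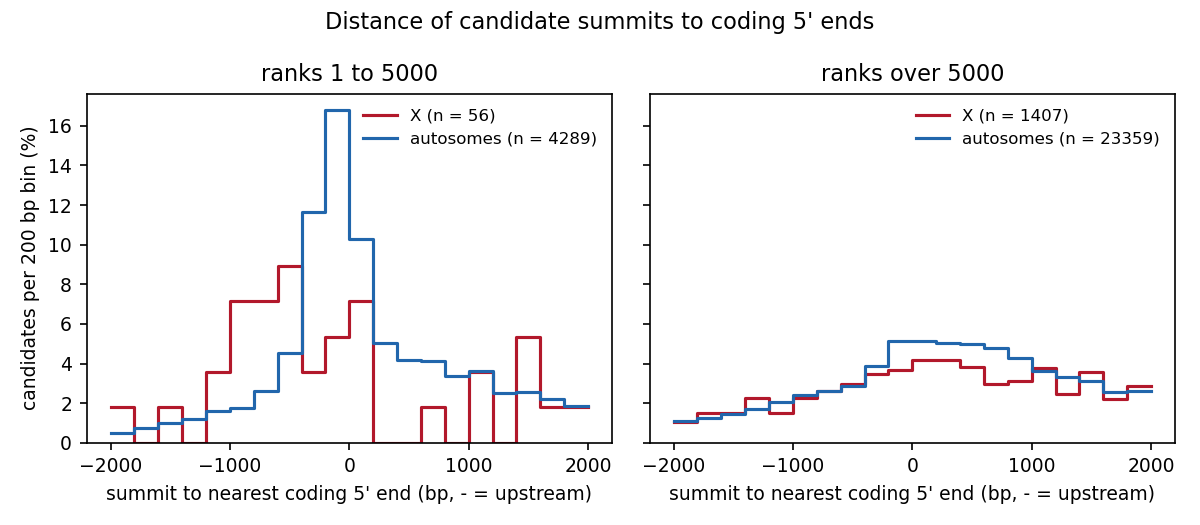
Signed distance of summits to the nearest coding 5' end (bp, horizontal axis, negative upstream) as the share of members per bin of 200 bp (%, vertical axis), for X and the autosomes, at ranks 1 to 5000 (left) and ranks over 5000 (right). The autosomal peak just upstream of the 5' end at ranks 1 to 5000 (4289 members) has no counterpart of equal height among the 56 X members.

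The 10 strongest X members within 500 bp of a coding 5' end had pooled signals of 38.99 to 117.1. After T13C5.6 and ZK816.3 came kin-29, a salt-inducible kinase gene, with a summit 200 bp upstream and a signal of 45.2. The summit at mxl-3, which encodes a Max-like transcription factor, was 24 bp upstream with a signal of 43.0. At hsp-3, a gene for the endoplasmic reticulum chaperone BiP, it was 25 bp downstream with a signal of 42.4. The replicates differed for these genes: kin-29 was at rank 4466 in replicate 3 and 9254 in replicate 4, mxl-3 at 2825 and 21648, and hsp-3 at 4510 and 6489. F47E1.1, Y81B9A.1, bet-2, C15H9.5 and K08H2.5 completed the 10, and of the 10, Y81B9A.1 and K08H2.5 had no summit within 200 bp in replicate 4. The summit 498 bp upstream of bet-2, a bromodomain protein gene, was at rank 21627 in replicate 3 and 922 in replicate 4.

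Counted by gene, 33.1% of coding genes had a member of any rank within 500 bp of the 5' end. It was 259 of 2731 genes (9.48%, interval 8.41 to 10.6) on X and 6347 of 17242 (36.8%, interval 36.1 to 37.5) on the autosomes. Down to rank 5000 it was 12 genes on X (0.439%) and 13.2% of autosomal genes, and in the optimal list it was 1 gene on X and 710 on the autosomes (4.12%).

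Lists of genes drawn up from background knowledge were counted in the same way. Among germline and chromatin genes, 2 of 8 on X had a member of any rank and none an optimal one, whereas 41 of 52 on the autosomes had one and 19 an optimal one. The 2 were lin-15B and lin-15A, synthetic multivulva genes of which lin-15B keeps germline genes silent in the soma, with signals of 19.7 and 14.3. Among ribosomal protein genes it was 1 of 2 on X, rpl-11.2 with a signal of 23.8, and 71 of 79 on the autosomes, 28 of them optimal. Neither list had an X gene with a member down to rank 5000.

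Over all X coding genes the share with a member was 9.48%, and the lists below are small, so their counts on X are given beside it as a description only. For neuropeptide genes it was 3 of 32 on X and 12 of 70 on the autosomes. The X genes were nlp-76, nlp-64 and nlp-45, and nlp-76, with a signal of 36.7 at rank 4408, was the only X gene of the 14 lists with a member down to rank 5000. Vitellogenin genes, which encode yolk proteins, had members at vit-5 and vit-2, 2 of 5 on X, with signals of 14.7 and 14.2, and 1 of 1 on the autosomes. Muscle genes had 2 of 14 on X, the troponin genes tnt-2 (18.6) and tni-1 (15.6), and 4 of 23 on the autosomes. Genes listed as neuronal, not all of them specific to neurons, had 2 of 24 on X and 7 of 28 on the autosomes. The 2 on X were dlg-1 (14.0) and the odorant receptor gene odr-10 (12).

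Homeobox, nuclear hormone receptor and collagen genes on X had shares of 11.1%, 8.70% and 7.41%, near that of all X coding genes. Homeobox genes had 2 of 18 on X, ceh-54 (20.5) and ceh-37 (17.2), and 10 of 45 on the autosomes. Nuclear hormone receptor genes had 2 of 23, nhr-167 (23.0) and nhr-255 (12), and 23 of 246. Collagen genes had 2 of 27, col-178 (26.6) and col-185 (15.3), and 37 of 129. No member lay at the 24 acetylcholine receptor and ligand-gated channel genes on X, at the 6 sex determination and dosage compensation genes, at the 4 intestinal genes or at the 4 histone genes there. On the autosomes those lists had 7 of 53, 12 of 15, 7 of 20 and 17 of 68. The list of 30 tRNA synthetase genes has none on X, and 22 of its 30 autosomal genes had a member. Replicate partners were few at the X genes named from all these lists. Only the members at nlp-76 and rpl-11.2 had a summit within 200 bp in both replicate lists. Those at tnt-2, nlp-64, nhr-167 and nhr-255 had one in neither, and the rest had one in a single list.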

How the data were processed

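Peak lists from ChIP-seq of OEF-1 in whole L4 larvae were analysed. Per the deposited README texts, each candidate list was made against 1 control file shared by both replicates, and the pooled list was made from both alignments. Each deposited list gives a signal per peak, whose scale the authors do not state. For peak caller, aligner, versions and depth, nothing is given in the sources used here. The signal was used only to rank and describe peaks within a list, and a second value, the peaks' q-value, was not used. Lists on ce10 and the control were not analysed here.

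From the ce11 lists, summits were set against WBcel235 genes (Ensembl release 115) and the RefSeq genome of the same assembly, giving distances to the nearest coding 5' end, annotation, motif matches, GC content and partners in the replicates. Exact 95% intervals were computed with scipy 1.17.1, and tables with pandas 2.3.3. Consecutive windows over whole chromosomes, with small RNA genes not left out, gave the background of motifs. The computations were tested on simulated data, and all 4 checks recovered their input. The members, the 14 gene lists and the comparisons were chosen with earlier results of these data known. Of 201 list symbols, 1 matched no gene.

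By rule, the text names the optimal X members, the next 10 by signal, the 10 strongest within 500 bp of a coding 5' end, up to 4 X genes of each list, and the 3 X genes with the most candidates. Alternatives varied the distances, the threshold and the replicates.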

Additional observations from a re-analysis of the deposited data

How the results depend on the processing

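Of 46 alternative values, 35 stayed close to the value reported and 11 moved further. Close meant inside the counting interval for a share, less than the SD over the 2 replicates for the median rank, and within 1.5 times for a count of genes. For shares of the 15 optimal X members that interval is wide, so being close says little. There, 20% with CGCAGGG within 25 bp and 60% within 100 bp both counted as close to 40% within 50 bp. Matching summits within 100 or 500 bp instead of 200 bp gave 10.8% and 26.2% of X members found in both replicates. Counting 5' ends within 200 or 1000 bp instead of 500 bp gave 8.07% and 33.7% of X members near one, and 113 and 431 X coding genes. Keeping the strongest of summits within 350 bp gave an X share of all members of 5.47%. Restricting the optimal list to its higher-ranked 50% left 4 X members, 0.273% of the X members, and 453 autosomal members, 1.64% of the autosomal ones. The X share of that shorter list was 0.875%. A shorter list lowers the shares of both groups by its length alone.

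Leaving out each replicate in turn meant taking the other replicate's own list, so several of these values are those given above for single replicates. The X share of all members was 5.31% to 11.3%, the higher value without replicate 3. The median rank of X members was at 58.8% to 65.4% of the way down the list. The X share of the top list was 1.12% to 2.15%, and 0.712% to 0.813% of X members were in that list. Of X members, 17.6% to 17.96% were near a coding 5' end. Of those in the top list, 27.3% to 33.3% had CGCAGGG within 50 bp. Ranks to 2500 in place of the optimal list, and motif counts with other noncoding RNA genes left out or neighbouring summits merged, were alternatives chosen after seeing the data. No paired analysis was possible because there was 1 group and no comparison between groups of samples.

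The optimal X members number 15, so their shares carry wide intervals, and the depth behind the lists is unknown. Without an untagged strain, signal that does not depend on the tagged protein cannot be told apart from binding.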

Other observations

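X members were spread along the chromosome unevenly. In 6 equal segments counted from the left end, there were 399, 204, 198, 158, 216 and 288 members, while coding genes numbered 414, 457, 514, 462, 508 and 376. Optimal X members numbered 2, 4, 3, 1, 4 and 1 in the same segments. Neighbouring members down to rank 2500 were between 44524 and 1855084 bp apart, with a median of 538316 bp.

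The gene with the most X members in its body or within 500 bp upstream was H18N23.2, with 9, all of them weak, since the best was at rank 9279 with a signal of 25.6. The zinc finger gene zfp-3, with a body of 6.28 kb, had 7 counted in this way, the best at rank 6565. The heterochronic gene lin-14, which sets the timing of larval cell fates, has a body of 20.3 kb. It had 7, all in introns and none better than rank 10153. Both eat-20 and adt-1 also had 7.

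Noncoding RNA genes of other kinds differed by class in how often a member lay near them. Annotated genes of the class ncRNA lay within 250 bp of 121 of 1463 X members (8.27%, interval 6.91 to 9.80) and 857 autosomal members (3.10%). X holds 2520 of these genes, against 5244 on the autosomes. MicroRNA genes lay as close to 11 X members (0.752%) and 57 autosomal members (0.206%), and 74 of them are on X and 187 on the autosomes. The strongest of these X members was the one named by T01B6.1 above, which lay at mir-8196a, with a pooled signal of 67.9 at rank 1546. Its ranks were 2078 in replicate 3 and 1403 in replicate 4. The piRNA genes lay as close to 8 X members (0.547%) and 5.43% of autosomal members, and 162 of them are on X and 15201 on the autosomes.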
